A study of Mus musculus with 16 samples.

Results

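The Vil1 and Mt1 loci were examined as 2 windows of 1 Mb, one around each gene, in mouse small-intestinal crypts. Of 212313 regions in which H3K9me3 was called as a MACS peak in this series, 11 overlapped the windows, 4 around Vil1 on chromosome 1 and 7 around Mt1 on chromosome 8. In each window 1 peak overlapped the gene itself, and the other 9 peaks are called neighbours here. Vil1 and Mt1 had been chosen because their H3K9me3 and input values differed between genotypes, so their values are a description and carry no test. The neighbours entered by position alone. Of 47065 H3K9me2 regions, 3 overlapped the Mt1 window and 0 the Vil1 window.

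Both marks had been measured by ChIP-seq in whole crypt isolates from C57BL/6 mice, all males. The wild-type group (WT) and the group with Vil-Cre mediated KO of Smarcad1 (KO) each held 3 ChIP libraries per mark and 1 input library, made without antibody, per mark, which gave 16 libraries. In KO mice, Cre came from the Vil-Cre transgene and removed exons 12 to 14 of Smarcad1, a chromatin remodeller, from an allele in which these exons were flanked by loxP sites. Each loxP line descended from 1 targeted ES cell clone, and the villin promoter limits Cre to the epithelium, so other cells keep Smarcad1. Whether WT mice carried the loxP allele or any transgene is not given in the labels. The antibodies were ab8898 for H3K9me3 and ab1220 for H3K9me2. The age of the mice is not given in the labels, and the isolate was not sorted, so cells outside the epithelium could be included.

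Vil1 encodes villin, which bundles the actin filaments of microvilli in the brush border of enterocytes, and its promoter is widely used to drive transgenes in the intestinal epithelium. Mt1 encodes a metallothionein, a small cysteine-rich protein that binds zinc and copper and is induced by metals and stress. H3K9me3 is a mark of repressed chromatin that can extend along a chromosome from a site where it is laid down, whereas H3K9me2 marks broader, mostly silent domains. The peak tables hold no sequence of the transgene, so the tie between these loci and the transgene could not be checked here.

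The peaks covered different parts of their genes. The Vil1 peak lay at chr1:74401801-74415300 (GRCm38, 13500 bp) and was wider than 99.7% of all peaks. By GENCODE M21 it began 7575 bp before the gene start, covered exon 1, intron 1 and exon 2, and ended 146 bp after exon 2. It held 2 of 20 exons and 3.02% of the coding bases. The Mt1 peak at chr8:94179151-94180650 was 1500 bp wide, close to the median of 1350 bp over all peaks. It began 69 bp after the gene start and ended 323 bp after the gene end, touched all 3 exons and held 100% of the 183 coding bases. Peak edges in these tables fall on steps of 150 bp, so these distances are known to that step.

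**Figure D1:**
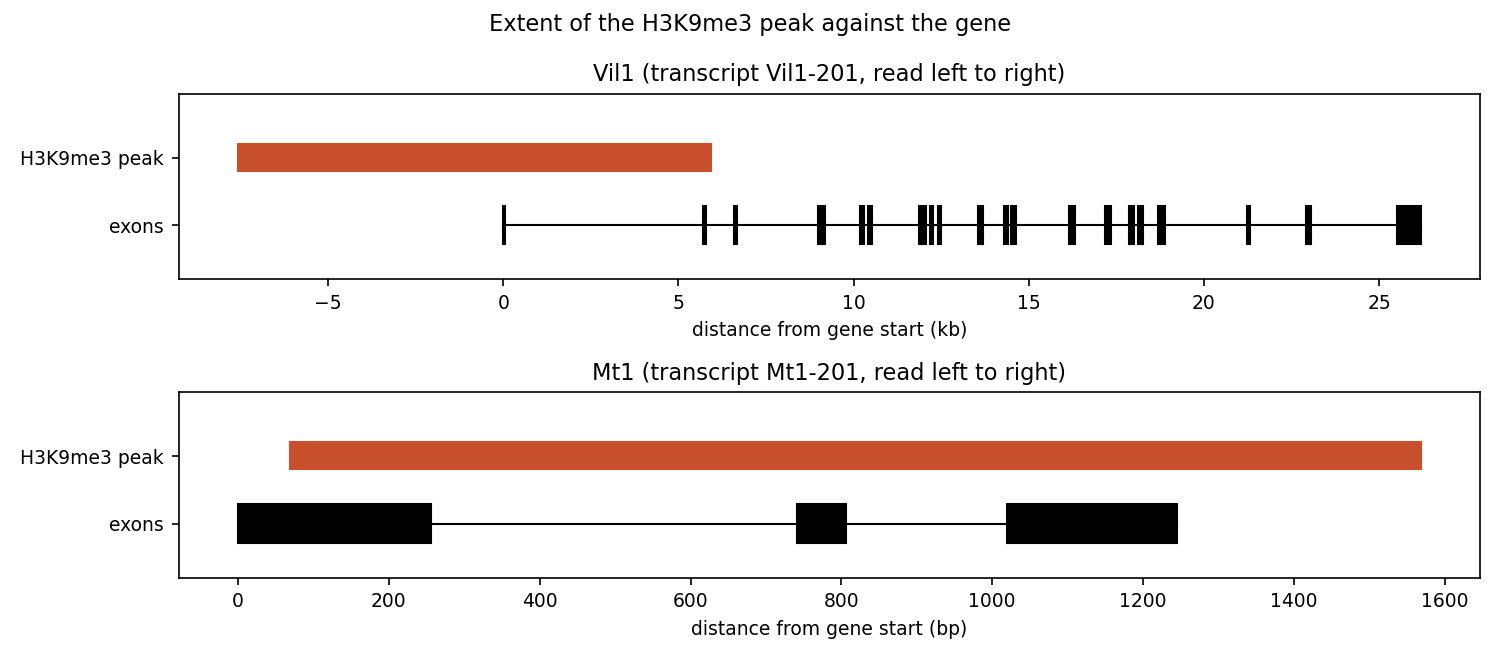
The horizontal axes give the distance from the gene start, in kb for Vil1 and in bp for Mt1. Black boxes are exons, and the coloured bar is the H3K9me3 peak, which covers the start of Vil1 and stops after exon 2 of 20, whereas at Mt1 it covers nearly the whole gene.

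The sequences at these edges are shown because they place the signal against promoter and coding sequence. All are on the plus strand of GRCm38.p6 and read 5′ to 3′, and the promoters are credited to RefSeq. In the 2 promoters, capitals mark CG dinucleotides. The stretch before the start of Vil1 (chr1:74409134-74409375) lay inside its peak, and that of Mt1 (chr8:94178839-94179081) lay just before its peak. In the third sequence (chr1:74415080-74415300), capitals mark the coding bases of exon 2 of Vil1, the first of the protein, and the remaining 146 bases run to the end of the peak. The fourth (chr8:94179823-94179888) is exon 2 of Mt1, in capitals because all of it is coding and inside the peak.
Vil1 promoter: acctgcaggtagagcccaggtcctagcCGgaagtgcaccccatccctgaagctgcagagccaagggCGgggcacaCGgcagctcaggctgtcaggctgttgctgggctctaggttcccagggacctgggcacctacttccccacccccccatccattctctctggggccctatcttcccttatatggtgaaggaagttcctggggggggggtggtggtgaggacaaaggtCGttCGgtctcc
Mt1 promoter: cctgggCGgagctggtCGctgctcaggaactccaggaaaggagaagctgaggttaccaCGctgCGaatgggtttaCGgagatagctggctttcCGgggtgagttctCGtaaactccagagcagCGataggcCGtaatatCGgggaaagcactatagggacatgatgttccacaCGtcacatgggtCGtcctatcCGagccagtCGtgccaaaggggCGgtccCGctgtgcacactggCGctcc
Vil1 end of peak: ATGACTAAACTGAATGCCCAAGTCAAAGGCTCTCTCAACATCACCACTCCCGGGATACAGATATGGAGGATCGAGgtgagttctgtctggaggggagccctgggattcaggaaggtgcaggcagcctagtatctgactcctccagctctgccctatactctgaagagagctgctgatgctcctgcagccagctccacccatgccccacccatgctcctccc
Mt1 exon 2: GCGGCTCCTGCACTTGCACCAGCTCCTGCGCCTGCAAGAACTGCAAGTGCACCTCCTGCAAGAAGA

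Over the full 300-base RefSeq promoter, Vil1 held 5 CG dinucleotides and Mt1 held 24, against a median of 7 in 32851 promoters. The Mt1 peak had 34.0 CG per kb and the Vil1 peak 10.6, against a median of 5.24 over all peaks. Repeats masked in the genome sequence covered 38.9% of the Vil1 peak and 10.9% of the Mt1 peak, against a median of 35.2%. Outside masked repeats, neither peak aligned elsewhere in GRCm38.p6 at 90% identity or more. Both peaks held an annotated start of a protein-coding transcript, as did 0.717% of all peaks. For Mt1 this was the start of a shorter transcript.

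At the Vil1 peak the 3 KO libraries stood far above the 3 WT libraries. The deposited value, a log2 read count whose distribution had been matched across the 6 ChIP libraries, was 5.50, 5.57 and 5.37 in WT1 to WT3 and 12.34, 11.97 and 12.21 in KO1 to KO3. The groups did not overlap, and the difference in means was 6.69 on the log2 scale. In such bulk chromatin, more cells with the mark and more of it per cell cannot be told apart. The deposited values are also not scaled to input, which itself differed at this peak (296 reads in WT and 3288 in KO). The difference is therefore not one of the mark alone. Whole reads recovered from the deposited values numbered 50, 46 and 47 in WT. In KO they were estimated by extrapolation at 3440, 4717 and 4718, since they lie above the highest counts recovered exactly (248 to 378). Matching ties a high value to its rank, and the KO values were those of ranks 5, 7 and 6 among all peaks of their libraries.

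At the Mt1 peak the split was of the same kind from a lower base. The deposited log2 value was 2.53, 2.43 and 2.25 in WT and 9.82, 10.37 and 10.37 in KO. Again the groups did not overlap, with a difference in means of 7.78. The WT libraries held 7, 5 and 6 reads, and the KO libraries an estimated 600, 1554 and 1315. KO1 ranked 125th, and KO2 and KO3 both ranked 50th, with equal matched values.

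In WT both genes had less H3K9me3 signal per base than any other tested peak. Read density, as reads per kb of peak scaled by the reads in all peaks of a library (RPKM), averaged 0.327 over the 3 WT libraries at Vil1 and 0.368 at Mt1. These were the lowest and second lowest of 212313 peaks, whose median was 2.301. The WT input did not share this, with an RPKM of 2.48 at Vil1 and 3.02 at Mt1 against a median of 2.41. Peaks had been called on the libraries of both genotypes together, so a stretch could be listed although WT showed no enrichment there.

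In KO the same density averaged 33.4 at Vil1 and 77.1 at Mt1, estimated from extrapolated reads, against a median of 2.36 over all peaks. Mt1, the lower of the pair in deposited log2 value, was the higher per base, over a narrower peak. The order of the 2 loci therefore depends on whether a level is read per peak or per base.

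**Figure D2:**
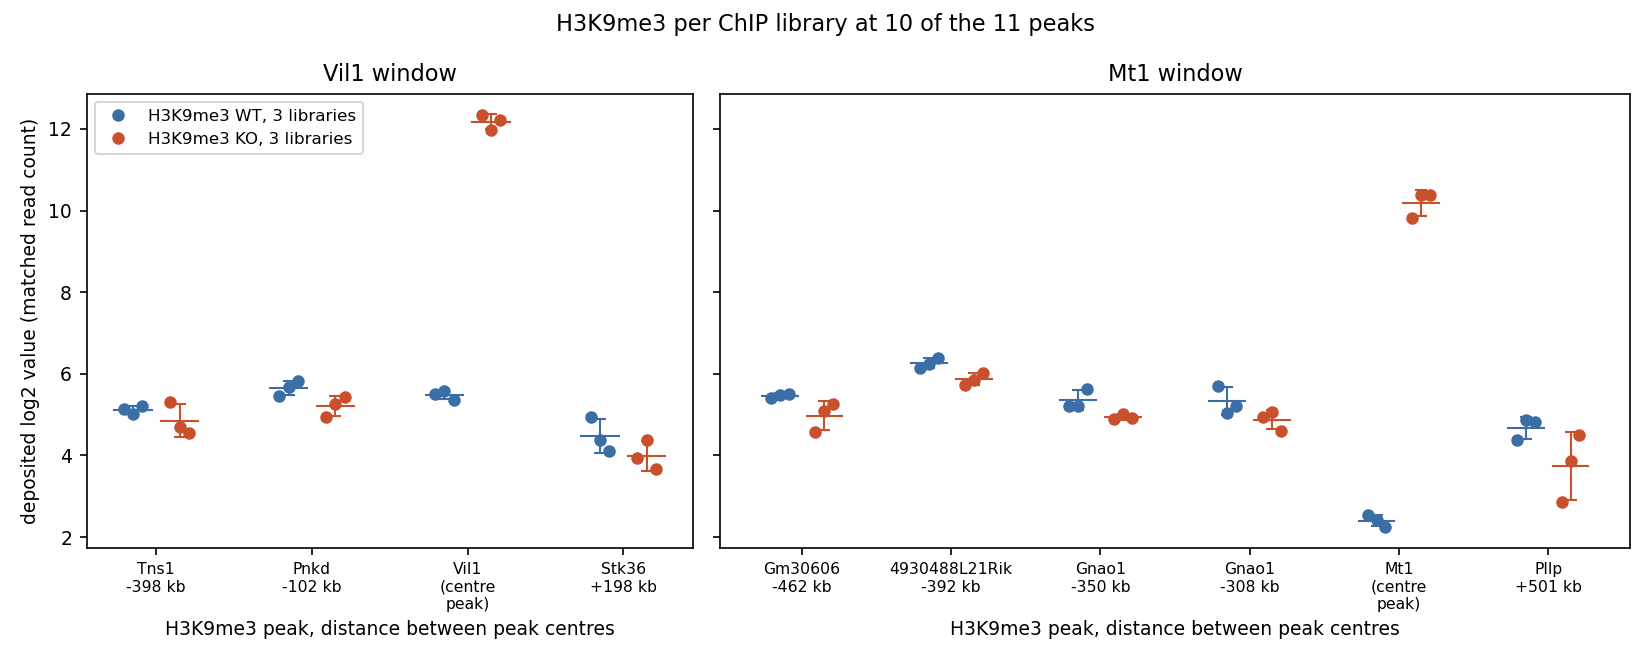
The vertical axis gives the deposited log2 value at each of the 11 peaks, of which 10 are plotted, ordered along the chromosome with the distance between peak centres in kb. Points are single libraries, and the lines are the mean and SD (n = 3). At Vil1 and Mt1 the KO points lie between 9.82 and 12.34, and at the 8 neighbours plotted every point lies between 2.85 and 6.39.

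The input without antibody also differed at both peaks. At Vil1 the H3K9me3 WT input held 296 reads and the KO input 3288, which is an 11.6-fold ratio after scaling to all reads in peaks (95% exact Clopper-Pearson interval 10.3 to 13.1). At Mt1 the counts were 40 and 302, a 7.89-fold ratio (5.66 to 11.3). The intervals cover counting error only, and with 1 input per genotype there is no replicate check and no test. In density the KO input reached an RPKM of 28.8 at Vil1 and 23.8 at Mt1, against 99th percentiles of 3.94 and 4.02 over all peaks in the KO and WT inputs. Genotype, transgene and library cannot be told apart in these inputs.

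Against the input of the same genotype, the KO libraries differed between the 2 loci. ChIP over input, as log2 of the read shares with 1 read added, was 0.21 ± 0.15 (SD, n = 3) at Vil1 in KO, at the 75.4th percentile of all peaks, whose median was -0.03. At Mt1 it was 1.66 ± 0.36 (SD, n = 3) in KO, at the 99.5th percentile. In WT the values were -2.90 ± 0.11 at Vil1 and -2.85 ± 0.12 at Mt1 (SD, n = 3), the lowest and second lowest of all listed peaks. Stretches low in both genotypes need not be listed, since peaks were called on all libraries together, so this is no rank over the genome. Library by library, the KO values at Vil1 were 0.33, 0.04 and 0.27. Those at Mt1 were 1.25, 1.87 and 1.86. The values at Vil1 were all lower than those at Mt1. All 3 libraries were set against the same single KO input and rest on extrapolated reads whose error was not measured. Whether any of the KO values at Vil1 differs from 0 could therefore not be told. Since reads are scaled to all peaks, 0 is close to the median of listed peaks and does not mean an absence of enrichment. From WT to KO, ChIP over input differed by 3.11 at Vil1 and 4.51 at Mt1. These are descriptions, since ChIP and input values had both served to choose the loci. Reads from a transgene and from the endogenous gene map to one place and cannot be told apart.

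**Figure D3:**
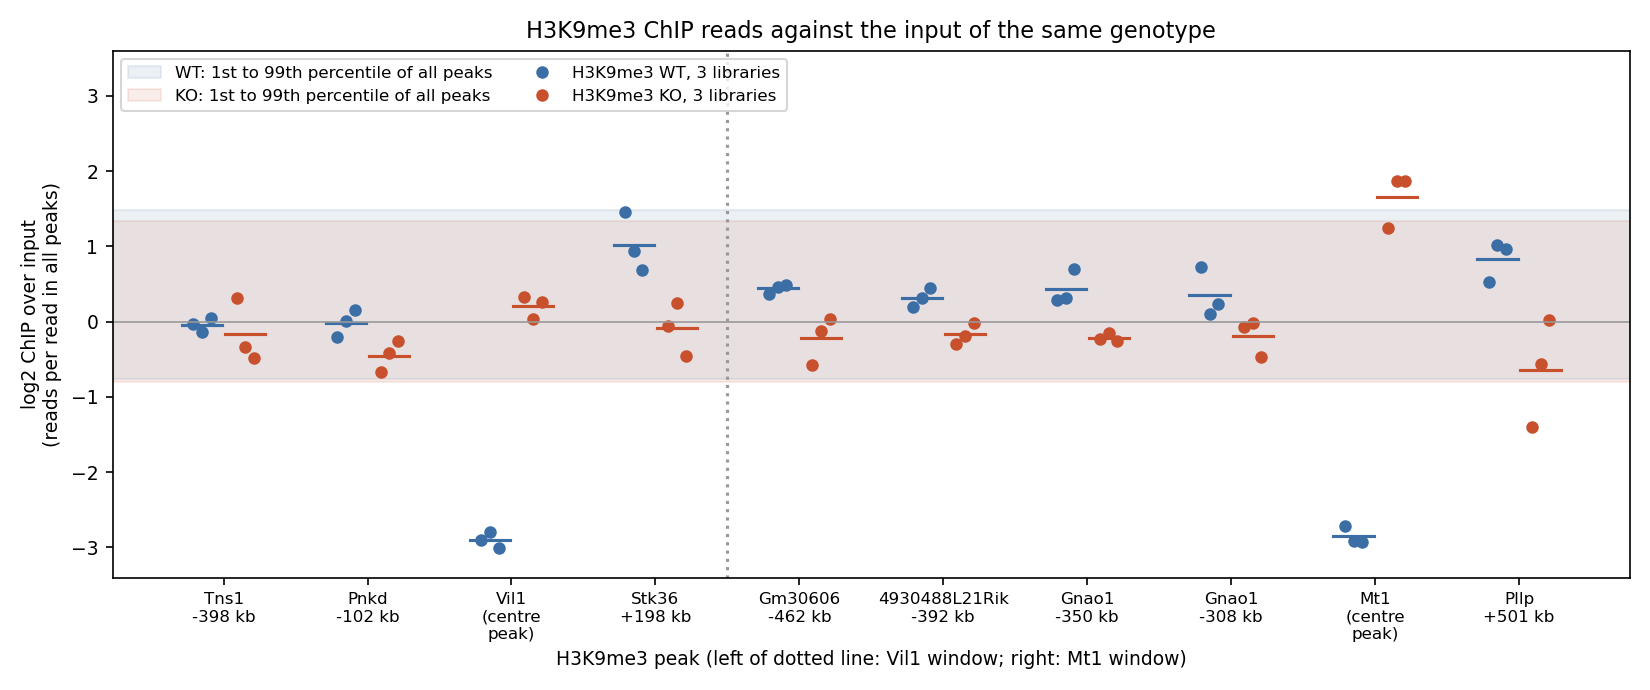
The vertical axis gives log2 ChIP over input for each library, each scaled to its reads in all peaks, with horizontal lines for means. Shaded bands run from the 1st to the 99th percentile of all peaks. In WT, Vil1 and Mt1 lie near -2.9, below the band, whereas in KO Vil1 lies inside the band and Mt1 has a mean of 1.66, above it.

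Whether the KO signal reached beyond the 2 genes was examined in the neighbours. None of the 9 neighbours rose or fell past the threshold (limma on the deposited log2 values, adjusted over all peaks, two-sided), against 2.71% of all peaks called and 0.252% called as a rise in KO. On recovered reads edgeR called 0 of the 9, and DESeq2 called 0 of the 2 around Vil1 and 0 of the 5 around Mt1 to which it gave an adjusted p. Before adjustment, 5 of 9 had a p under 0.05, all lower in KO, against 6.75% of all peaks lower at that level (10.8% in either direction). All 9 differences were negative, with a median of -0.43 in each window against 0.03 over all peaks, of which 45.3% were negative. All 3 KO values lay below all 3 WT values at 4 of the 9, against 8.21% of all peaks, and above at 0, against 7.30%. The 9 neighbours share their libraries and are not independent replicates.

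The nearest neighbour of Vil1 was an intronic peak of Pnkd, 94.7 kb to the left. Its values were 5.46, 5.67 and 5.82 in WT and 4.95, 5.27 and 5.43 in KO, so all KO values lay below all WT values. The difference was -0.43 ± 0.19 (SE; limma adjusted p = 0.343). To the right, the nearest was in an intron of Stk36, a kinase gene linked to motile cilia, 191 kb away, at 4.94, 4.38 and 4.12 in WT and 3.93, 4.37 and 3.66 in KO. Here the groups overlapped, with a difference of -0.49 ± 0.30 (SE; limma adjusted p = 0.597). The third neighbour lay 390 kb to the left in an intron of Tns1, which encodes tensin, an actin-binding protein of cell adhesions, with values of 5.14, 5.01 and 5.21 in WT and 5.31, 4.69 and 4.55 in KO. KO1 was the highest of the 6 and KO3 the lowest, and the difference was -0.27 ± 0.22 (SE; limma adjusted p = 0.762).

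Of the 6 neighbours of Mt1, 5 are described singly. Gnao1, which encodes the alpha subunit of the G protein Go, held 2 intronic peaks. The nearer, 306 kb away, had 5.71, 5.05 and 5.21 in WT and 4.95, 5.06 and 4.61 in KO. Values at the farther, 349 kb away, were 5.21, 5.22 and 5.63 in WT and 4.89, 5.02 and 4.92 in KO. Groups overlapped at the nearer and not at the farther, where KO was lower, and the differences were -0.45 (limma adjusted p = 0.433) and -0.41 (0.471).

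The peak on the right of Mt1 had the largest difference among the 9 neighbours. It lay 499.5 kb away in an intron of Pllp, which encodes plasmolipin, and over an exon of the antisense gene Gm45767, with 4.37, 4.86 and 4.81 in WT and 2.85, 3.87 and 4.49 in KO. Groups overlapped, KO spread more than WT, and the difference was -0.95 ± 0.32 (SE; limma adjusted p = 0.119). KO1 held 5 reads there and KO3 22. Without KO replicate 3 this peak was called lower (limma adjusted p = 0.0218), the single call among the neighbours in any alternative.

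The 2 peaks farthest to the left of Mt1 overlapped non-coding genes. At 4930488L21Rik, 390 kb away, the values were 6.14, 6.24 and 6.39 in WT and 5.72, 5.86 and 6.01 in KO, a difference of -0.39 (limma adjusted p = 0.236). At Gm30606, 460 kb away, they were 5.41, 5.48 and 5.51 in WT and 4.57, 5.10 and 5.25 in KO, a difference of -0.49 (limma adjusted p = 0.299). At both, all KO values were below all WT values.

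The input ratio seen at the 2 genes was not seen at the neighbours. Summed over the 3 neighbours of Vil1, the inputs held 84 reads in WT and 84 in KO, a scaled ratio of 1.05 (95% exact interval 0.763 to 1.43). Over the 6 neighbours of Mt1 they held 190 and 200, a ratio of 1.10 (0.898 to 1.35). Each of the 9 single intervals included 1. The widest, at Stk36, ran from 0.656 to 4.26 on 9 and 14 reads, so ratios within that range could not be told apart there. The ratios of 11.6 at Vil1 and 7.89 at Mt1 lay outside it. ChIP over input at the 8 neighbours described singly was between -0.04 and 1.02 in WT and between -0.65 and -0.09 in KO, inside the 1st to 99th percentiles of all peaks.

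**Figure D4:**
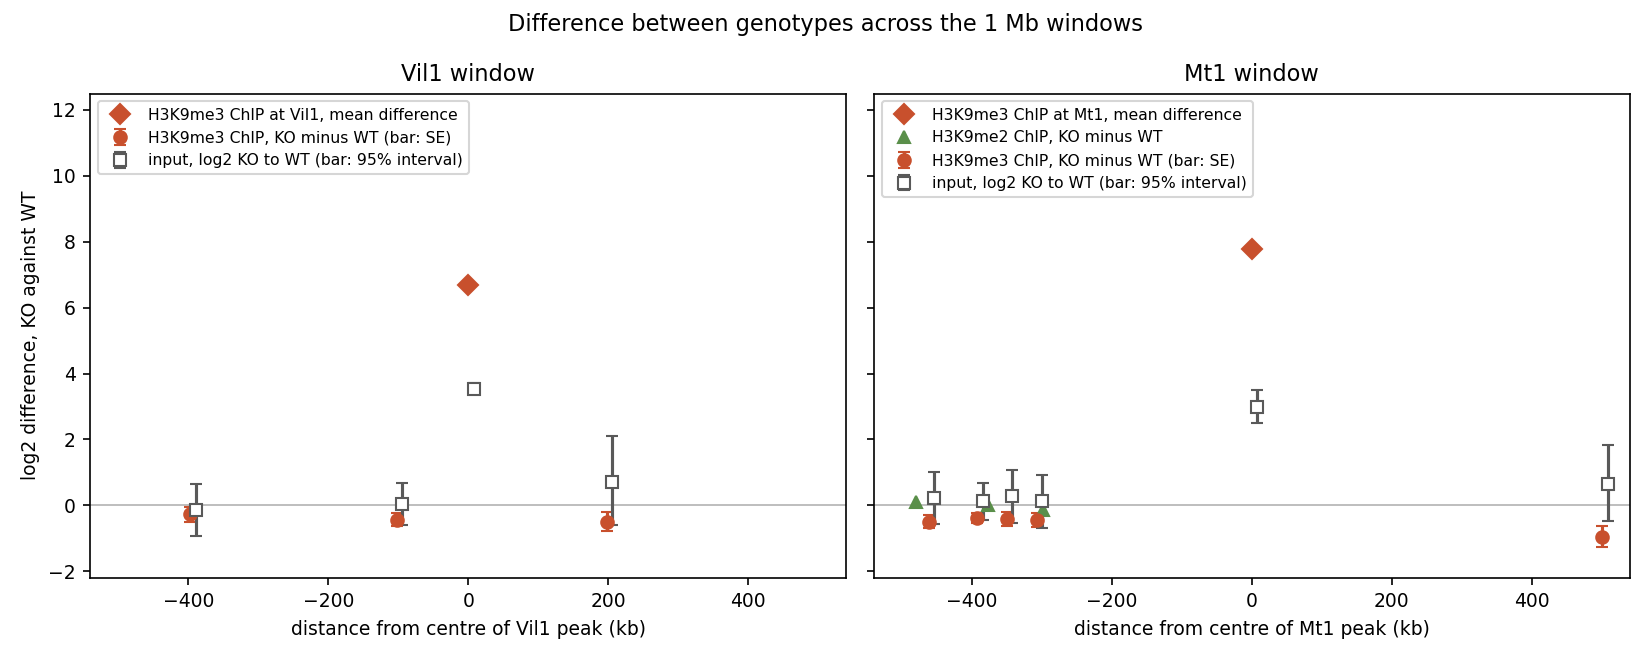
The vertical axis gives the log2 difference between KO and WT, and the horizontal axis the distance from the centre of the Vil1 or Mt1 peak in kb (input squares are shifted slightly right). Bars are SE for H3K9me3 and 95% exact intervals for input. The centre points reach 6.69 and 7.78 for H3K9me3 and 3.54 and 2.98 for input, whereas H3K9me3 at the 8 neighbours plotted lies between -0.95 and -0.27.

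The space close to each gene was free of listed peaks, which limits what distance can be read. No peak was listed between 94.7 kb left and 191 kb right of the Vil1 peak, or within 499.5 kb on the right of the Mt1 peak. Of the genes beside Vil1, Ctdsp1, which encodes a phosphatase of RNA polymerase II, lay 4515 bp from the peak, and Usp37, which encodes a deubiquitinase, lay 20.2 kb away. The other metallothionein genes lay 5582 bp (Mt2), 25004 bp (Mt3) and 40119 bp (Mt4) from the Mt1 peak. None of these 5 genes was overlapped by a peak. Unlisted sequence has no value in these tables, so H3K9me3 below the calling threshold could not be measured there. Both windows were sparse in peaks, with 4 and 7 per Mb against a median of 27 over the 1-Mb bins of the genome that held any peak. The Vil1 window holds 28 protein-coding genes and the Mt1 window 18, of which 4 in each overlapped a peak.

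H3K9me2, measured in other libraries that had no part in the choice of the loci, showed no region over either gene. In the Mt1 window the nearest region was in Gnao1, 297 kb to the left, with 94, 56 and 43 reads in WT and 95, 38 and 106 in KO, out of 18986927 to 39080740 reads in regions per library. The groups overlapped, also after scaling to those totals, and the difference was -0.14 (edgeR quasi-likelihood test, adjusted p over all regions = 1.00). The regions at 4930488L21Rik and Gm30606 differed by 0.02 and 0.09. None of the 3 passed the threshold, against 0.00212% of all regions (1 of 47065, at Gm24632 outside both windows), and none had an unadjusted p under 0.05, against 3.12% of all in either direction and 1.52% lower. By DESeq2, too, 0 of the 3 passed. On the other side of Mt1 the nearest region was 1451 kb away at Gins3, and around Vil1 the nearest were 507 kb to the left, near no gene, and 1105 kb to the right at Stk11ip. Their differences were 0.17, 0.24 and 0.01, and none passed. With no region over Vil1 or Mt1, the H3K9me2 inputs give no second reading of the input ratio there.

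The 2 loci were nearest to each other in profile. By Euclidean distance between the 6 H3K9me3 values, each centred on its mean, they lay 1.498 apart, and the next genes for both were Fat1 (4.22 from Vil1, 5.52 from Mt1) and Tcf4 (4.79 and 6.13). Fat1 encodes a large cadherin and Tcf4 a transcription factor. Their peaks differed by 3.33 and 2.79 between KO and WT. With 1 read added, their input log2 ratios were -0.01 and 0.47, against 3.53 at Vil1 and 2.95 at Mt1. Within 500 kb of the peak centre, 5 of 35 other peaks around Fat1 and 14 of 21 around Tcf4 were called higher, and 5 and 1 were called lower, against 0.252% of all peaks called higher and 2.46% lower. Counted the same way, 0 of 3 around Vil1 and 0 of 7 around Mt1 were called higher, and 0 of the 3 lower. In that span 1 of the 7 was called lower, a peak at Gm26843 outside the Mt1 window, named after its value was seen (-0.56, limma adjusted p = 0.0352). These peaks were chosen by likeness of profile, so the counts are a description.

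Genes related to Vil1 and Mt1 were examined from 3 lists, which were chosen with earlier results known. In the gelsolin and villin family, which severs or caps actin, 5 peaks lay within 5 kb of 2 of the other 7 genes, and of these 2 fell and 0 rose, against 2.46% of all peaks called lower and 0.252% higher. Both were in Svil, which encodes supervillin, at -0.91 and -1.10 (limma adjusted p = 0.0345 and 0.0148). The first was not called without WT1, WT3 or KO3 (limma adjusted p = 0.138 to 0.338) or by DESeq2, and the other was not called without WT1 or WT3 (limma adjusted p = 0.0539 and 0.156). DESeq2 gave this other peak no adjusted p. The median of the 5 was -0.78, against 0.03 over all peaks.

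Among the other 11 brush border genes, 5 had a peak, with 11 peaks, of which 2 passed the threshold as lower and 1 as higher, beside the same shares of 2.46% and 0.252% over all peaks. The lower peaks were at Eps8, which encodes an actin-capping protein of microvilli (5.45 ± 0.40 in WT and 4.18 ± 0.27 in KO, SD, n = 3; limma adjusted p = 0.000371), and at Cdhr2, a protocadherin that links microvilli (7.03 ± 0.13 and 6.17 ± 0.58; limma adjusted p = 0.000325; not called by DESeq2, adjusted p = 0.325). The higher peak was at Espn, which encodes the actin bundler espin (6.43 ± 0.44 and 6.99 ± 0.20; limma adjusted p = 0.0201). Leaving out WT2, WT3, KO2 or KO3 ended the Espn call (limma adjusted p = 0.0808 to 0.287), and DESeq2 did not make it. The median of the 11 was -0.40.

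Among the other 28 genes of metallothioneins and zinc handling, 6 had a peak, with 30 peaks, of which 4 fell and 0 rose. They were 1 peak each in the zinc transporter genes Slc30a7 (-0.86, limma adjusted p = 0.00122) and Slc30a9 (-1.32, limma adjusted p = 0.000836) and 2 in Slc39a11, of the other family of zinc transporters (-1.13 and -1.35; limma adjusted p = 0.000845 and 0.000808). The median of the 30 was -0.24. No other metallothionein had a peak within 5 kb. Over the 3 lists without Vil1 and Mt1, 9 of 46 peaks were called, 8 of them lower and 1 higher, against 2.46% and 0.252% of all peaks. Many of the 46 lay at the same gene and all share their libraries, so they are not independent replicates. DESeq2 called 5 of the 38 to which it gave an adjusted p, all lower, against 1.55% of all peaks called by that tool.

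Reads in peaks ranged from 7056088 to 11831570 over the H3K9me3 ChIP libraries, lowest in KO1, and were 8838386 and 8452186 in the WT and KO inputs. Smarcad1 was overlapped by 0 H3K9me3 peaks and 0 H3K9me2 regions, and the tables hold no expression, so neither its deletion nor the crypt identity of the cells could be examined. Replicates are described by the study as biological.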

How the data were processed

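Per the submitters' processing notes and the study's methods, reads were trimmed (Trim Galore 0.4.4) and mapped to GRCm38 (Bowtie2 2.3.2), filtered in SeqMonk at mapping quality 20 with duplicates removed, and peaks were called with MACS on all ChIP libraries of a mark against both inputs. The deposited H3K9me3 values are log2 read counts per peak, matched in distribution over the 6 ChIP libraries, with inputs as unmatched log2 counts. The deposited H3K9me2 signal is the mean read count over the peaks of a region. The authors' table of called H3K9me2 peaks holds raw counts and served only as a check. Columns with the authors' FDR and standard deviations were not used.

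Whole H3K9me3 reads were recovered from the order of distinct values (exact up to 248 to 382 reads, extrapolated above; matching them again gave all values to within 0.01), and H3K9me2 reads as mean times number of peaks. H3K9me3 was tested with limma 3.58.1 (trend), since the table holds log2 values, and H3K9me2 with edgeR 4.0.16 (quasi-likelihood, TMM), on all peaks or regions, with Benjamini-Hochberg adjustment and a threshold of 0.05. The fits were tested on simulated data. Copies elsewhere were sought with BLAST+ 2.17.0.

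The members and lists were chosen with earlier results of these data known. Named were, in each window, the Vil1 or Mt1 peak, the 3 nearest peaks on each side and any other called peak (1 neighbour of Mt1 is counted but not reported here singly); the nearest H3K9me2 region on each side and any called; the 3 genes nearest in profile; and each called peak of the listed genes. Alternatives were edgeR and DESeq2 1.42.0 on recovered reads, filters on low values, narrower windows, other input scalings, leaving out each library, and a block for the replicate number.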

Additional observations from a re-analysis of the deposited data

How the results depend on the processing

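No neighbour of Vil1 was called under any alternative, and for the neighbours of Mt1 the count with 1 library left out ran from 0 to 1, the 1 being Pllp without KO replicate 3. All 9 neighbour differences were negative under all 10 alternative fits. The median over the neighbours of Vil1 (-0.43) ran from -0.46 to -0.27 with 1 library left out, nearest to 0 without WT replicate 1. That of the neighbours of Mt1 ran from -0.50 to -0.35, and within 250 kb of the window's centre too few peaks were left for a median. Over all H3K9me3 peaks, 5762 were called, 2390 by DESeq2 and 3777 to 5228 with 1 library left out (3777 without WT replicate 1), and near listed genes 9, with 5 by DESeq2 and 6 to 9 with 1 library left out. Over all H3K9me2 regions 1 was called, 3 by DESeq2, and 0 to 2 with 1 library left out. The H3K9me2 median in the Mt1 window was 0.02 and ran from -0.12 to 0.11 with 1 library left out, turning negative in 3 of 6 such fits (without WT replicate 2, WT replicate 3 or KO replicate 2). No region lay in the Vil1 window or within 250 kb of the centre of the Mt1 window, so neither gave a value.

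Libraries with the same replicate number did not deviate together (correlations of -0.01, 0.01 and -0.01 for H3K9me3 and 0.18, 0.01 and 0.09 for H3K9me2), so the numbers do not pair the samples. With a replicate block 5752 H3K9me3 peaks and 17 H3K9me2 regions were called, and none in the windows beyond Vil1 and Mt1. ChIP over input at Vil1 ran from -2.95 to -2.85 in WT and from 0.15 to 0.30 in KO with 1 library left out, and at Mt1 from -2.92 to -2.81 and from 1.56 to 1.87. The KO levels rest on extrapolated reads, whose error was not measured. Depth limits the neighbours, where inputs held 9 to 55 reads per peak.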
